A study of Homo sapiens with 4 samples.

Results

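The SR splicing factor genes are described here through 10 members, SRSF1, SRSF2, SRSF3, SRSF4, SRSF5, SRSF6, SRSF7, SRSF10, TRA2A and TRA2B. Every row of the deposited transcript table that carries one of these gene names was taken, whatever its type or level, which gave 76 of the 75165 listed transcripts and 10 of the 20298 listed genes. The RNA came from MDA-MB-231, a human triple negative breast cancer line, transduced with lentivirus at a multiplicity of infection of 4 to express 3x flag-YTHDC1 and held in 2 μg/ml puromycin for 4 days. After UV crosslinking, nuclear lysate was either immunoprecipitated with an anti-flag antibody (IP, 2 libraries) or kept as input (2 libraries). Per the paper, ribosomal RNA was removed from the RIP-seq RNA before the libraries were made. All 4 libraries therefore carry the overexpressed reader, the cells are a transduced and drug-selected population of a single line, and neither cells without the vector nor an IgG pulldown were analysed here. The table gives a single mean normalized count per transcript over the IP and input libraries together. Values of the separate libraries are not given in it, so their depth and the spread between replicates are unknown, no SD or n accompanies the values below, and no test was run. Differences between IP and input were not analysed here, since the only values that bear on them are the authors' own comparison.

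SR proteins bind exonic enhancers through RNA recognition motifs and recruit the splicing machinery through a domain rich in arginine and serine. Several of them also escort spliced mRNA to the export receptor NXF1. Their genes are known for controlling themselves: a highly conserved "poison" cassette exon, or a retained or alternatively spliced intron, brings in an early stop codon, and the resulting RNA is degraded by nonsense-mediated decay or stays in the nucleus. YTHDC1, the nuclear reader of N6-methyladenosine, is known to work with SRSF3 and against SRSF10 in exon choice. The annotation separates these products by transcript type. A protein-coding transcript has an annotated open reading frame, which need not be complete. A nonsense-mediated decay transcript has a stop codon far upstream of its last exon junction. A retained-intron transcript holds sequence that is intronic in other transcripts, and a processed transcript has no annotated reading frame. The type does not say which exon or intron is responsible, so a poison exon cannot be told apart from another cause of an early stop in these values.

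Fewer of the counts of the SR genes lay on protein-coding transcripts than was the case for most genes. Summed over the 10 genes, 43.3% of the mean normalized counts were on protein-coding transcripts, 33.2% on nonsense-mediated decay transcripts, 11.8% on retained-intron transcripts and 11.6% on processed transcripts. Over the 10596 background genes, which were all listed genes with at least 2 transcripts and a gene total of at least 100 mean normalized counts, the 10 SR genes included, the summed shares were 85.6%, 4.28%, 4.39% and 4.54%. A single gene carried much of the decay class, because SRSF2 held 61.0% of its counts and 22.4% of all counts of the 10 genes. Without SRSF2, the nonsense-mediated decay share was 16.7% and the protein-coding share 53.1%. The median over the 10 genes, in which each gene weighs the same, was 11.6% for nonsense-mediated decay, 4.07% for retained introns and 44.9% for protein-coding transcripts. The corresponding medians of the background genes were 0%, 0% and 89.7%. A nonsense-mediated decay transcript was listed for only 35.3% of the background genes, and a retained-intron transcript for 47.7%. The shares are shares of reads and not of molecules, since no transcript lengths were used and a long transcript yields more reads than a short one. They describe nuclear RNA, input and pulldown pooled, and not the mRNA of whole cells.

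**Figure D1:**
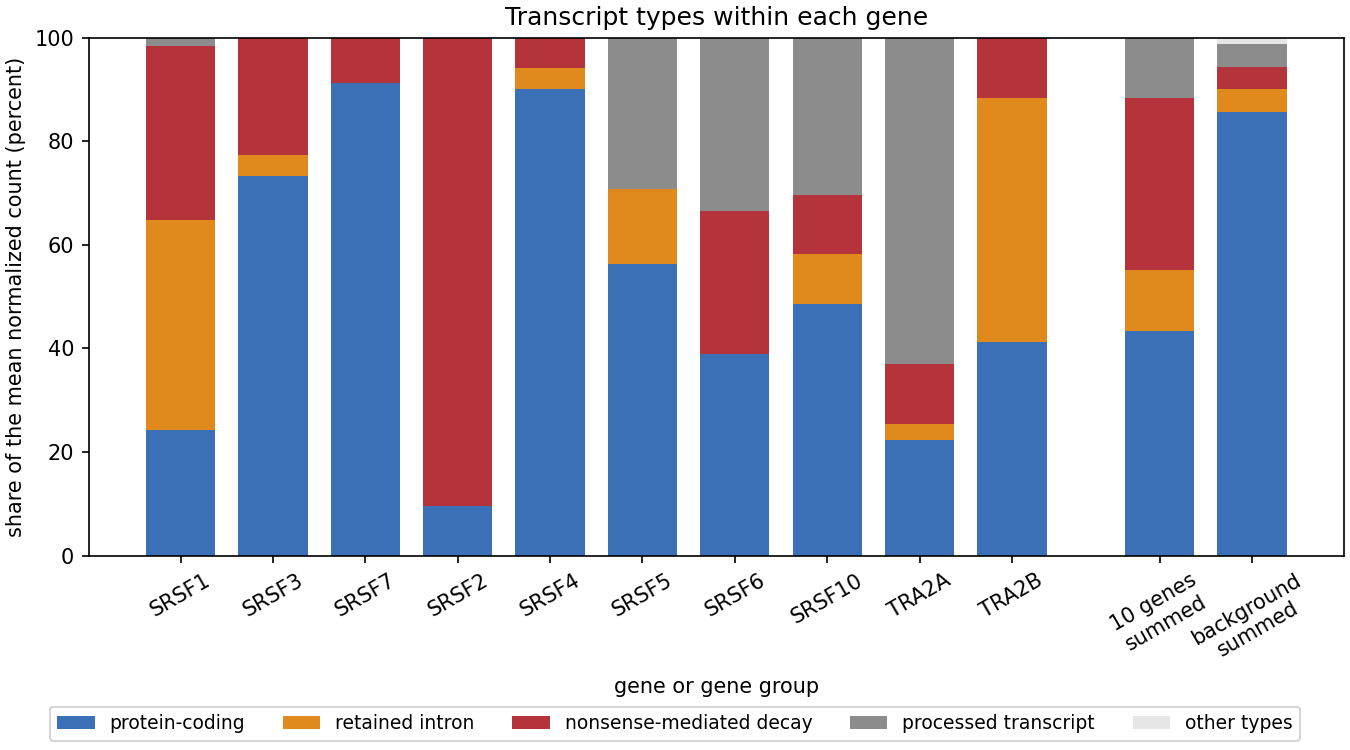
Share of each gene's mean normalized count (percent, vertical axis) by transcript type, for the 10 SR genes, for their summed counts and for the summed counts of the background genes. Protein-coding transcripts make up 91.3% of SRSF7 and 9.50% of SRSF2, against 85.6% of the summed background.

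The 76 transcripts comprised 34 protein-coding, 19 retained-intron, 14 nonsense-mediated decay and 9 processed transcripts. Nonsense-mediated decay transcripts were 18.4% of them, against 8.65% of all listed transcripts, and retained-intron transcripts 25.0% against 15.4%. The mean normalized counts ran from 5.53 to 4618 with a median of 101, and 38 transcripts lay at or above 100. By type, the median count was 193 for the nonsense-mediated decay, 131 for the protein-coding, 182 for the processed and 42.3 for the retained-intron transcripts. The decay transcripts of these genes were thus not a low tail of the table, in which the median of all nonsense-mediated decay transcripts was 42.1. For all listed protein-coding, processed and retained-intron transcripts the medians were 91.0, 26.8 and 22.6, so every type had a higher median in these genes. The retained-intron transcripts were many and mostly low beside the other types of these genes, and TRA2B and SRSF1 together held 77.7% of their counts.

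**Figure D2:**
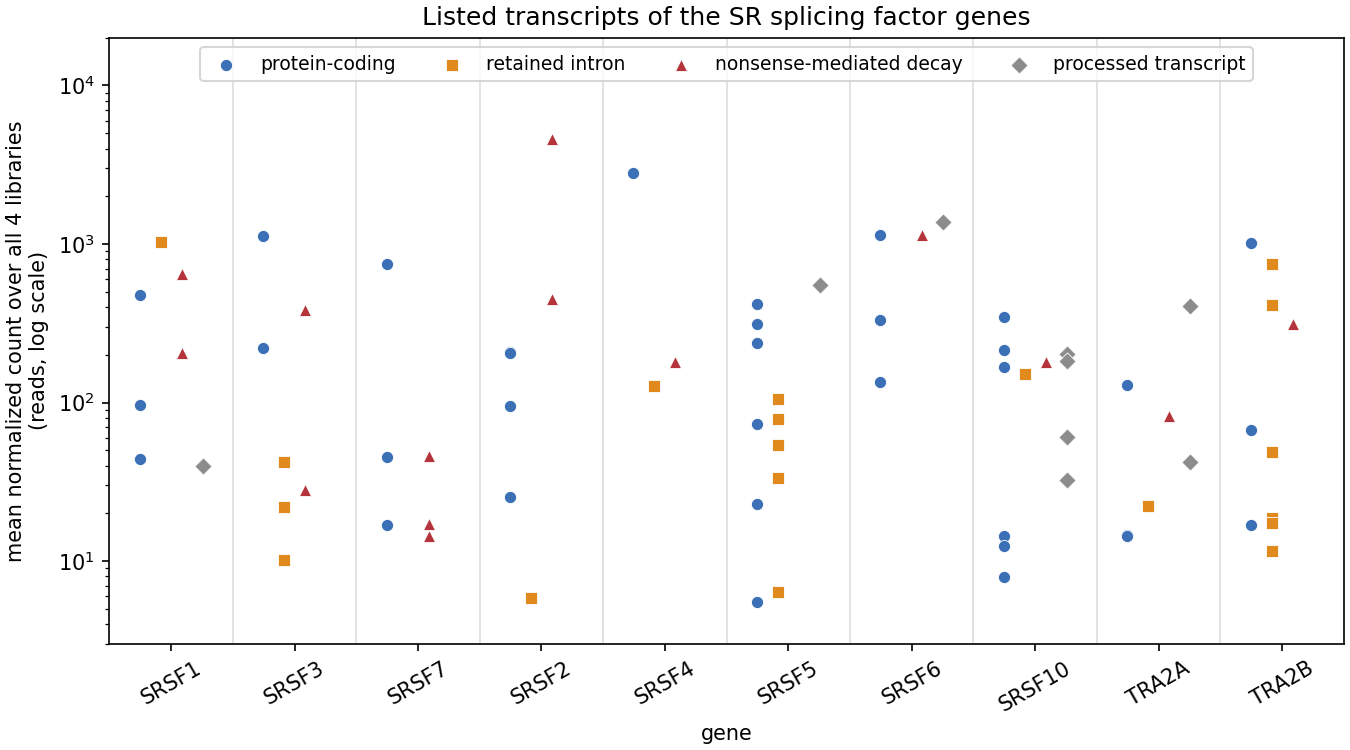
Mean normalized count over all 4 libraries (vertical axis, log scale) of each of the 76 listed transcripts, by gene, with marker shape and color giving the transcript type. The highest point is a nonsense-mediated decay transcript of SRSF2 at 4618, and the highest protein-coding point is SRSF4-201 at 2823.

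SRSF1, SRSF3 and SRSF7 are the members best known as adaptors for mRNA export, and their make-up differed widely. SRSF1 (ENSG00000136450.13, GRCh38 chromosome 17, 57989038 to 58007246), the founding SR protein, had 7 listed transcripts and a gene total of 2537. Its most abundant transcript was the retained-intron form SRSF1-202, with a mean normalized count of 1032 and 40.7% of the gene. The nonsense-mediated decay transcripts SRSF1-207 and SRSF1-206 followed with 645 and 207, while the most abundant protein-coding transcript, SRSF1-208, had 474. Protein-coding transcripts made up 24.2% of SRSF1, and the decay class held 1.39 and the retained-intron class 1.68 counts for each coding count. SRSF1-201, also protein-coding, had a count of only 96.7.

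SRSF3 (ENSG00000112081.17, chromosome 6, 36594362 to 36605600), the smallest SR protein and a known partner of YTHDC1, was mainly protein-coding. Its total was 1825, of which SRSF3-208 had 1116 and SRSF3-202 had 222, both protein-coding. The nonsense-mediated decay transcript SRSF3-203 had 384, or 21.1% of the gene, and was the second most abundant. Its 3 retained-intron transcripts, led by SRSF3-207 at 42.3, made up 4.07%.

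SRSF7 (ENSG00000115875.19, chromosome 2, 38743599 to 38751494), which carries a zinc knuckle beside its RNA recognition motif, had the highest protein-coding share of the 10 genes, 91.3% of a total of 891. The protein-coding transcript SRSF7-202 had 751, or 84.3% of the gene. The 3 nonsense-mediated decay transcripts were low, with SRSF7-204 highest at 45.8, and came to 8.69%. No retained-intron transcript of SRSF7 was listed. A share of 0 in this text means that no transcript of the type is listed for the gene, not that none was present. Either none is annotated, or none passed the authors' minimum of 5 reads in at least 50% of the libraries. These cases cannot be told apart here.

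SRSF2 (ENSG00000161547.16, chromosome 17, 76734115 to 76737411), the nuclear speckle protein also called SC35, stood at the other end. Its nonsense-mediated decay transcript SRSF2-208 had a mean normalized count of 4618, the highest of all 76 transcripts, and made up 82.4% of a gene total of 5604. With SRSF2-204, at 447, the decay class reached 90.4% of the gene, a share exceeded by 37 of the 10596 background genes. All 4 protein-coding transcripts were far lower, with SRSF2-201 at 208, SRSF2-205 at 205, SRSF2-203 at 94.7 and SRSF2-202 at 25.2. For each coding count there were 9.51 decay counts, and the retained-intron transcript SRSF2-206 was near the floor of the table at 5.88. The RefSeq span of SRSF2 overlaps that of MFSD11 over 778 bases. MFSD11 had a listed total of 603 over 6 transcripts. Per the paper, a stranded kit was used for the RIP-seq libraries, but the handling of strand in counting is not given in the sources used here. Whether reads of the overlap entered SRSF2 was not tested.

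SRSF4, SRSF5 and SRSF6 share an architecture with a second, degenerate RNA recognition motif, yet their make-up differed. SRSF4 was led by a protein-coding transcript. In SRSF5 and SRSF6 a processed transcript had the highest pooled mean, with no spread given. SRSF4 (ENSG00000116350.17, chromosome 1, 29147743 to 29181900), which has a long arginine-serine domain, had only 3 listed transcripts. SRSF4-201, protein-coding, had 2823 of a total of 3131, or 90.2%, against 180 for the nonsense-mediated decay transcript SRSF4-206 and 128 for the retained-intron transcript SRSF4-208. The RefSeq span of SRSF4 overlaps that of MECR over 14205 bases, and MECR had a listed total of 649 over 8 transcripts. The spans of SRSF1 and SRSF5 overlap those of the long noncoding RNA genes LOC101929185 and LOC100289511, over 1997 and 572 bases. Neither was listed under these symbols. The effect of these overlaps on the counts was not tested.

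SRSF5 (ENSG00000100650.16, chromosome 14, 69767142 to 69772005) was the only member with no listed nonsense-mediated decay transcript. Its 12 transcripts were spread out, with the processed transcript SRSF5-216 leading at 554 (29.1% of a total of 1903), followed by the protein-coding SRSF5-204 at 420, SRSF5-205 at 314 and SRSF5-202 at 236. The 5 retained-intron transcripts lay between 6.34 and 105, with SRSF5-212 highest, and came to 14.6%. Protein-coding transcripts made up 56.3%.

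SRSF6 (ENSG00000124193.16, chromosome 20, 43457896 to 43464243) had 3 transcripts of near-equal count and of 3 different types. The processed transcript SRSF6-206 had 1380, the protein-coding SRSF6-204 had 1139 and the nonsense-mediated decay transcript SRSF6-202 had 1138. They made up 33.5%, 27.6% and 27.6% of a total of 4124. With no spread between libraries given, these 3 values cannot be put in an order. No retained-intron transcript was listed, and all protein-coding transcripts together came to 39.0%.

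SRSF10 (ENSG00000188529.15, chromosome 1, 23964347 to 23980327), which turns into a general splicing repressor when it loses its phosphates, had counts spread over many transcripts. Its most abundant transcript, the protein-coding SRSF10-203, had 346, or 22.0% of a total of 1574, and 6 of its 12 transcripts had at least 10% of the gene. These were the protein-coding SRSF10-211 (216) and SRSF10-205 (168), the processed transcripts SRSF10-212 (203) and SRSF10-201 (182) and the nonsense-mediated decay transcript SRSF10-210 (180) beside SRSF10-203. The single retained-intron transcript, SRSF10-213, had 151, or 9.58%. The effective number of transcripts, the exponential of the Shannon entropy of the shares within a gene, was 8.53 for SRSF10, above 98.7% of the background genes. It was 1.47 for SRSF4 and 2.02 for SRSF2, and the background median was 2.73. This number cannot exceed the number of listed transcripts, which was 12 in SRSF10 and had a median of 5 in the background.

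TRA2A and TRA2B, SR-like proteins with a single RNA recognition motif between arginine-serine domains, are paralogs that bind purine-rich enhancers and are known to control the poison exons of their own and each other's genes. TRA2A (ENSG00000164548.11, chromosome 7, 23504780 to 23531981) had the lowest total of the 10 genes, 707, and its leading transcript was the processed transcript TRA2A-204 at 404 (57.1%). The protein-coding TRA2A-201 had 129, the nonsense-mediated decay transcript TRA2A-203 had 81.6 and the retained-intron TRA2A-209 had 22.2. Protein-coding transcripts made up 22.3% of the gene.

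TRA2B (ENSG00000136527.18, chromosome 3, 185914558 to 185938014) had the highest retained-intron share of the 10 genes, 47.2% of a total of 2671. The protein-coding TRA2B-203 was still its most abundant single transcript at 1015, but the retained-intron forms TRA2B-211 at 750 and TRA2B-213 at 413 brought that class above the coding class, with 1.15 counts for each coding count. The nonsense-mediated decay transcript TRA2B-206 had 312, or 11.7% of the gene. The other 4 retained-intron transcripts lay between 11.6 and 48.8. TRA2A and TRA2B thus had nearly the same nonsense-mediated decay share, 11.5% and 11.7%, while their retained-intron shares were 3.14% and 47.2%.

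The same counts were set beside the background genes. The most abundant transcript was not protein-coding in 5 of the 10 SR genes (SRSF1, SRSF2, SRSF5, SRSF6 and TRA2A), against 16.1% of the background genes. The calls for SRSF5 and SRSF6 rest on the order of a processed and a protein-coding transcript, for which no spread is given. In SRSF5, the protein-coding transcripts together made up 56.3% of the gene. A nonsense-mediated decay share of at least 10% was found in 7 (SRSF1, SRSF2, SRSF3, SRSF6, SRSF10, TRA2A and TRA2B), against 18.1%. Of these, SRSF10, TRA2A and TRA2B lay near the limit, at 11.4%, 11.5% and 11.7%, with no spread given. SRSF7 lay below it at 8.69%. Any nonsense-mediated decay transcript was listed for 9 of the 10 SR genes, but for only 35.3% of the background genes. Of the 3736 background genes with such a transcript, 1921 reached 10%, beside 7 of the 9 SR genes with one. A retained-intron share of at least 10% was found in 3 (SRSF1, SRSF5 and TRA2B), against 15.5%. Any retained-intron transcript was listed for 8 of the 10 SR genes and for 47.7% of the background genes. Of the 5055 background genes with one, 1642 reached 10%, beside 3 of the 8 SR genes with one. The protein-coding share was under 50% in 6 (SRSF1, SRSF2, SRSF6, SRSF10, TRA2A and TRA2B), against 15.8%. SRSF10 lay near this limit at 48.6%, again with no spread given. The decay share lay above the upper quartile of the background, 3.86%, in 9 of the 10 genes, and the retained-intron share above its upper quartile, 4.74%, in 4. SRSF4 and SRSF7 were the 2 members with a protein-coding share above the background median. These are descriptions over 10 genes chosen by name, with no test, and the number of annotated transcripts differs between genes, with a median of 7 listed transcripts in the SR genes and 5 in the background.

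**Figure D3:**
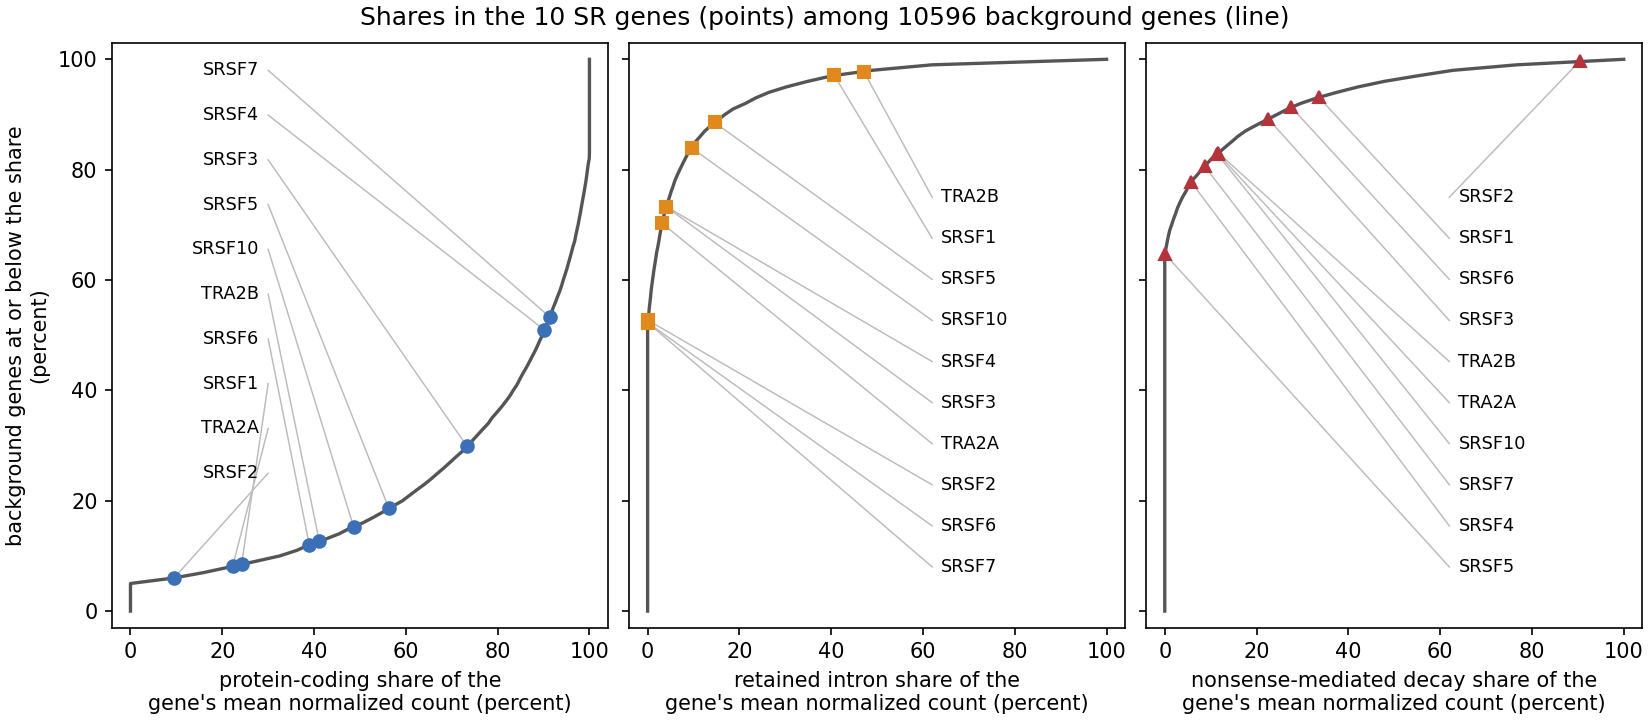
Percent of the 10596 background genes (vertical axis) whose protein-coding, retained-intron or nonsense-mediated decay share lies at or below a given share (horizontal axis, percent of the gene's mean normalized count), with the 10 SR genes as points on each line and gray lines leading to their names. SRSF2 lies at 90.4% on the nonsense-mediated decay line, and TRA2B and SRSF1 lie at 47.2% and 40.7% on the retained-intron line.

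Other genes of the same regulatory circuit differed in which type they carried. Of the other SR genes, SRSF8, SRSF9 and SRSF11 were listed and SRSF12 was not, and their protein-coding shares were 93.6%, 75.6% and 30.5%. SRSF9 resembled SRSF3 in its nonsense-mediated decay share, with 21.1% beside 22.6% over all such transcripts of SRSF3. SRSF11 had 68.6% on processed transcripts. The kinases that phosphorylate SR proteins, CLK1, CLK2, CLK3, CLK4, SRPK1 and SRPK2, had a median protein-coding share of 50.7%, beside 44.9% in the SR genes and 89.7% in the background. Their median retained-intron share was 22.4%, against 4.07% in the SR genes. The highest were 52.3% in SRPK1 and 46.4% in CLK1, and CLK2 and SRPK2 had none listed. Their median nonsense-mediated decay share was 5.03%. None of these differences between groups was tested.

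The heterogeneous nuclear ribonucleoprotein (hnRNP) genes, which encode the other large family of splicing regulators and often oppose SR proteins, had medians near those of the background and summed shares apart from it. Over the 23 listed protein-coding genes whose symbols begin with HNRNP, the median protein-coding share was 89.7%, and their median nonsense-mediated decay share was 0% with an upper quartile of 9.54%, against 3.86% in the background. Summed over these genes, 78.5% of the counts were on protein-coding and 16.8% on nonsense-mediated decay transcripts. The latter stood against 4.28% in the background and 33.2% in the SR genes. The 16.7% of the SR genes without SRSF2 is not a like comparison, since no gene was left out of the hnRNP sum. Unlike the background, the hnRNP group also holds genes with a single listed transcript. In single genes, a nonsense-mediated decay share of at least 10% was found in 5 of the 23 hnRNP genes, against 7 of the 10 SR genes. Among these, HNRNPU had 58.4% and HNRNPDL 44.7% on decay transcripts, and HNRNPUL2-BSCL2, a readthrough locus with a single listed transcript, had 100%. With gene totals of 20618 for HNRNPU and 5932 for HNRNPUL2-BSCL2, these genes weigh heavily in the hnRNP sum. The summed share without them was not computed. The most abundant transcript was not protein-coding in 3 of the 23, HNRNPU, HNRNPUL2-BSCL2 and HNRNPA1P48, the last of which carries a pseudogene symbol and has a single, processed transcript. In retained introns, HNRNPH1 was highest at 24.4%, and the hnRNP median was 0%.

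**Figure D4:**
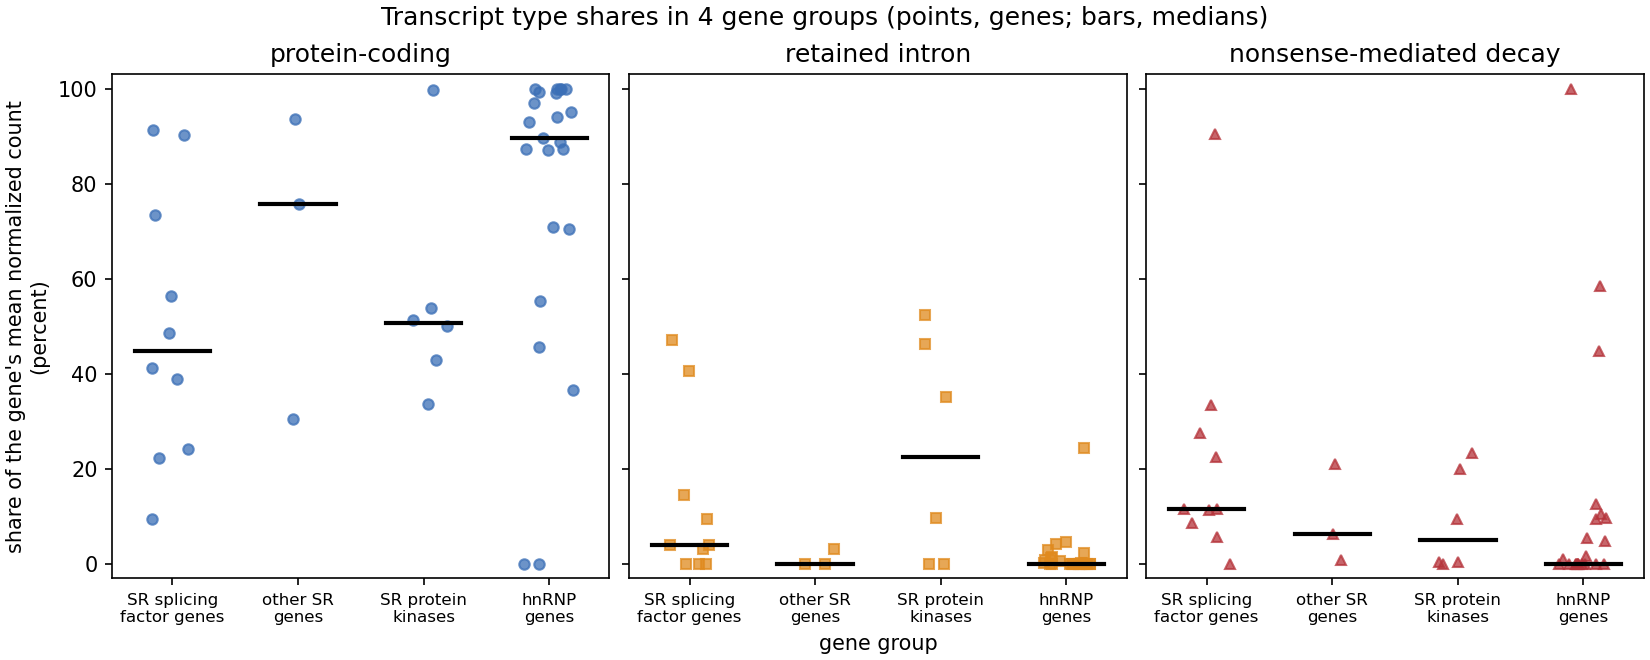
Protein-coding, retained-intron and nonsense-mediated decay share (vertical axis, percent of the gene's mean normalized count) of each gene in 4 groups, the 10 SR splicing factor genes, 3 other SR genes, 6 SR protein kinases and 23 hnRNP genes, with black bars at the medians. The median protein-coding share is 44.9% in the SR genes, 50.7% in the kinases and 89.7% in the hnRNP genes.

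The genes outside the list whose 3 shares lay nearest to the summed SR genes were ZNF333, MGAT5B, IFITM10, PIGG and RABGGTA. That sum depends on SRSF2, without which its nonsense-mediated decay share was 16.7% and its protein-coding share 53.1%. Likeness was measured as the summed absolute difference of the protein-coding, retained-intron and nonsense-mediated decay shares, in percentage points, over the single pooled mean of the 4 libraries, and it ran from 3.74 in ZNF333 to 8.23 in RABGGTA.

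In the pooled means, VIM, which mesenchymal-like breast cancer lines express, had a gene total above 99.9% of all genes, CDH1, the epithelial cadherin, was at 10.0 over 1 transcript, and ESR1 and PGR, the hormone receptors absent from triple negative cells, were not listed. ERBB2, the receptor gene that is not amplified in triple negative cells, was listed at 4303, above 92.9% of all genes. YTHDC1, the overexpressed gene, had a total of 55488, above 99.8% of all genes. These totals cover IP and input together and do not check the label of any single library.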

How the data were processed

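RIP-seq was analysed from 2 IP and 2 input libraries, grouped by their labels. Per the paper's methods and the submitters' processing notes, the authors used STAR (version 2.7.2b) with GENCODE v33 transcripts (GRCh38) for mapping and RSEM (version 1.2.31) for counting per transcript. They discarded transcripts that did not reach 5 reads in 50% of samples or more, handled unwanted variation with RUVSeq and ran DESeq2. RSEM divides reads that fit several transcripts by a statistical estimate, so a transcript's value can rest on few reads of its own. The deposited signal used here is the authors' mean normalized count, 1 value per transcript for all 4 libraries. The table also holds the authors' log2 fold change, its standard error, p-value and adjusted p-value, which were not used, so the count test planned for values per library was not run. Library depth is unknown, and no interval was given.

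Transcripts were summed by gene identifier and annotated type with python 3.11.15, numpy 2.4.6 and pandas 2.3.3, and drawn with matplotlib 3.10.9. Shares are percentages of a gene's summed mean normalized count. The steps were tested on simulated data. All 10 identifiers had the same symbol in a separate gene name table, and gene spans were taken from RefSeq (GRCh38.p14). The members and lists were chosen with earlier results of these data known. The text names all members, the most abundant coding, retained-intron and nonsense-mediated decay transcript of each, transcripts with at least 10% of a gene, the extremes of the other lists and the 5 genes of nearest make-up. Other transcripts, and the cell line genes, were named after their values were seen.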

Additional observations from a re-analysis of the deposited data

How the results depend on the processing

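No paired analysis was possible because the table holds no value per library. Leaving out a library, DESeq2 or edgeR settings and values per transcript length could not be run for want of values per library or of lengths. Requiring a mean normalized count of at least 10 or 100 per transcript gave a nonsense-mediated decay share of the summed SR genes of 33.3% or 34.3%, and at 100 the retained-intron share was 10.9%. The median over members gave shares of 44.9% (protein-coding), 4.07% (retained-intron) and 11.6% (nonsense-mediated decay). Without SRSF2 they were 53.1%, 15.2% and 16.7%, and without the single transcript SRSF2-208, a setting chosen after seeing the data, 53.2%, 14.5% and 18.1%. Adding processed transcripts to retained introns gave 23.4%. The number of members led by a protein-coding transcript was 5 under both minimum counts.

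Background genes whose most abundant transcript is not protein-coding were 10.1% at a gene total of at least 1000, 21.0% with no minimum total and 11.8% among protein-coding genes only, a setting chosen after seeing the data. In the order of a total of at least 1000, no minimum total, at least 5 listed transcripts and protein-coding genes only, a nonsense-mediated decay share of at least 10% was found in 15.2%, 17.5%, 23.3% and 19.0% of background genes, a retained-intron share of at least 10% in 14.1%, 15.6%, 20.9% and 15.7%, and a protein-coding share under 50% in 9.71%, 20.8%, 16.0% and 11.5%. Against these backgrounds, 8 or 9 members lay above the upper quartile in nonsense-mediated decay and 4 in retained introns. Library depth is unknown, so counts near the lowest of the table carry an error that cannot be stated.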
